A study of Mus musculus with 66 samples.

Results

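Among mouse embryonic stem cell libraries with a deletion at Praf2, 2 libraries with a large share of mitochondrial RNA were set against 2 with a smaller share. The libraries were chosen by a value measured in them: the share of a library's expected counts on genes named mt-, over 9% in the high libraries and under 7% in the low ones. The high libraries were GDel1 replicate 1 and GDel2 replicate 2, and the low libraries were GDel1 replicate 2 and GDel2 replicate 1, so each deletion number gave 1 high and 1 low library. These were all 4 deletion libraries of 7 RNA-Seq libraries, and the series holds 66 samples in all. The remaining 59 samples are not analysed here.

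Both GDel1 and GDel2 carry the genotype label of a deletion of a G-quadruplex at Praf2, in the E14 line of mouse embryonic stem cells, and neither was treated. The reference libraries were 3 untreated wildtype E14 libraries. Per the labels, all groups grew in serum with LIF and with inhibitors of GSK and MEK, conditions that hold such cells in a naive state. Libraries were directional and came from total RNA after removal of ribosomal RNA. Whether the numbers GDel1 and GDel2 stand for different clones, and whether a replicate is its own culture, is not stated in the labels.

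A share of reads describes the RNA in a library and not the number of mitochondria. Mammalian mitochondria carry a small circular genome that encodes subunits of respiratory complexes I, III, IV and V, together with the rRNAs and tRNAs needed to translate them. Both strands are transcribed as long precursors, which are cut into separate RNAs, so most mitochondrial mRNAs are made together. All other proteins of the organelle, including its polymerase, its ribosomal proteins and most respiratory subunits, come from nuclear genes. Differences below are the high library minus the low library of the same deletion, on the scale of log2 CPM. CPM is a gene's count scaled by the size of its library, with TMM factors, and 2 was added as a prior count before taking logs. Because the libraries were sorted by their own values, every gene in this contrast is described without a test.

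In the high library of GDel1 9.91% of counts were mitochondrial (9.89 to 9.92, a 95% Wilson interval), and in that of GDel2 9.60% were (9.58 to 9.62). The low libraries had 4.83% in GDel1 replicate 2 (4.82 to 4.84) and 6.19% in GDel2 replicate 1 (6.18 to 6.21). Wildtype replicates 1, 2 and 3 had 6.89%, 6.30% and 6.30%. The high share was thus 2.05 times the low share in GDel1 and 1.55 times in GDel2. No library lay between 6.89% and 9.60%, so the thresholds fell in a gap, and GDel2 replicate 1 lay just below all 3 wildtype libraries. The intervals cover counting error only. On the deposited TPM scale, which divides by transcript length, the shares were 6.10% and 6.96% in the high libraries of GDel1 and GDel2, 3.19% and 4.87% in the low libraries, and 5.92%, 4.61% and 4.88% in wildtype. On that scale GDel1 replicate 1 stood only slightly above wildtype replicate 1.

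**Figure D1:**
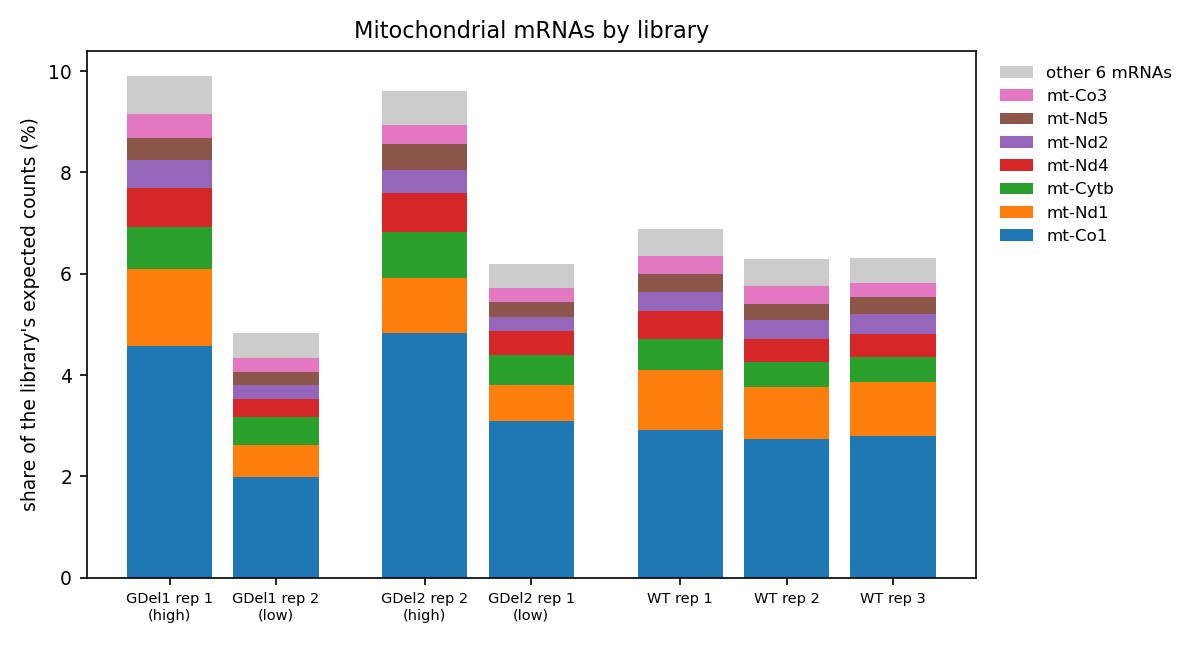
Stacked bars give the percentage of each library's expected counts on mitochondrial mRNAs, with the 7 most abundant mRNAs in colour and the other 6 in grey. The high libraries reach 9.91% and 9.60%, the low libraries 4.83% and 6.19%, and the 3 wildtype libraries 6.30% to 6.89%.

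Nearly all of this share was mRNA. Mitochondrial rRNA took at most 0.00289% of counts in any of the 7 libraries, which were made after depletion of ribosomal RNA. mt-Co1, which encodes the catalytic subunit of cytochrome c oxidase (complex IV), alone took 4.58% and 4.82% of counts in the high libraries of GDel1 and GDel2, against 1.99% and 3.10% in the low libraries and 2.74% to 2.91% in wildtype. Without mt-Co1 the shares were 5.33% and 4.78% in the high libraries, 2.84% and 3.10% in the low libraries, and 3.50% to 3.98% in wildtype. The split was therefore visible with and without the most abundant transcript.

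Of 13 mitochondrial mRNAs, 11 were higher in the high library of both deletions, and 7 passed 1.5-fold in both. These values are what chose the libraries, so they count as description. Those 7 (mt-Nd1, mt-Nd2, mt-Co1, mt-Atp8, mt-Nd4, mt-Nd5 and mt-Cytb) were higher by 0.77 to 1.42 in GDel1 and by 0.70 to 0.91 in GDel2 on the log2 scale. mt-Co1 had 49927 and 50312 CPM in the high libraries of GDel1 and GDel2, against 19439 and 30081 CPM in the low libraries and 28588, 26788 and 27300 CPM in wildtype. Both high libraries lay far above wildtype for this gene, while the low library of GDel1 lay below it and that of GDel2 slightly above.

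The complex I subunit mt-Nd1 showed a different order. It had 16423 and 11473 CPM in the high libraries of GDel1 and GDel2, against 6120 and 6875 CPM in the low libraries and 11747, 9892 and 10248 CPM in wildtype. For this mRNA GDel2 replicate 2 lay inside the wildtype range, and both low libraries lay below it. mt-Cytb, the complex III subunit, had 9138 and 9337 CPM in the high libraries, against 5353 and 5756 CPM in the low libraries and 4873 to 5956 CPM in wildtype. Its low libraries were within the wildtype range. The make-up of the mitochondrial mRNA pool differed by deletion as well: mt-Co1 made 46.3% and 50.2% of it in the high libraries of GDel1 and GDel2, 41.2% and 50.0% in the low libraries, and 42.2% to 44.5% in wildtype.

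mt-Nd6 was not higher in the high library of either deletion, and mt-Nd3 was higher in that of GDel2 only. mt-Nd6, a complex I subunit, is the single mRNA encoded on the opposite strand of the mitochondrial genome and overlaps the end of mt-Nd5. It had 44.1 and 14.5 CPM in the high libraries of GDel1 and GDel2, against 209.2 and 16.0 CPM in the low libraries and 25.5, 26.4 and 38.9 CPM in wildtype. The difference was -2.24 in GDel1 and -0.15 in GDel2, and GDel1 replicate 2 stood apart from every other library. Which strand the authors counted is not stated in the labels. mt-Nd3, another complex I subunit, had 141.6 and 74.0 CPM in the high libraries, against 198.4 and 57.2 CPM in the low libraries and 93.4 to 116.9 CPM in wildtype. Its difference was -0.49 in GDel1 and 0.37 in GDel2.

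The remaining mitochondrial mRNAs were higher in both pairs without passing 1.5-fold in both. The differences of mt-Co2, mt-Co3 and mt-Atp6 were 0.94, 0.99 and 0.71 in GDel1 and 0.58, 0.50 and 0.57 in GDel2. mt-Nd4l, at 55.1 to 122.8 CPM across the 7 libraries, differed by 0.32 in GDel1 and 0.31 in GDel2.

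Several technical values were compared with the split. Depth was 13538039 and 14434134 expected counts in the high libraries of GDel1 and GDel2, against 18762704 and 12316853 in the low libraries and 13360009 to 18549005 in wildtype, and did not follow it. The mean fragment length implied by the deposited effective lengths was 154.5 and 156.6 bases in the high libraries, against 158.5 and 151.4 in the low libraries and 152.4 to 156.3 in wildtype, and did not follow it either. The share of the nuclear small RNA Rn7sk did follow it, with 2.90% and 2.27% in the high libraries, against 1.57% and 1.87% in the low libraries and 1.92% to 2.15% in wildtype. The TMM factors were 0.919 and 0.960 in the high libraries, against 1.03 and 1.03 in the low libraries and 1.02 to 1.03 in wildtype. The part of these values in the results below was not tested.

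Praf2, the gene at the deletion, did not separate high from low libraries. It had 10.1 and 14.1 CPM in the high libraries of GDel1 and GDel2, against 9.26 and 13.1 CPM in the low libraries. The 3 wildtype libraries had 27.5, 28.8 and 30.6 CPM, so all 4 deletion libraries were below wildtype. The high-minus-low difference was 0.12 in GDel1 and 0.10 in GDel2, and the ratio of high to low counts had a counting interval of 0.857 to 1.37 in GDel1 and 0.870 to 1.33 in GDel2.

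All 8 markers of embryonic stem cells were present in every library, and their summed level was 3798 and 3878 CPM in the high libraries, against 4226 and 3901 CPM in the low libraries and 3619 to 3735 CPM in wildtype. Feeder fibroblast markers (9 genes) summed to 0.805 and 3.11 CPM in the high libraries, against 0.989 and 3.71 CPM in the low libraries and 1.58 to 2.36 CPM in wildtype, with Dcn, Col3a1, Prrx1 and Postn at 0 in all 7. Markers of differentiated cells (11 genes) summed to 10.6 and 27.9 CPM in the high libraries, against 9.63 and 28.8 CPM in the low libraries and 10.2 to 11.01 CPM in wildtype. That sum differed between GDel2 and the other libraries, mainly through Eomes, and not between high and low libraries.

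Among 15405 nuclear genes, replicates of a deletion differed more than wildtype replicates did. In GDel1, 1091 genes (7.08%) were 1.5-fold or more higher in the high library and 1744 (11.3%) were lower. In GDel2, 858 genes (5.57%) were higher and 999 (6.48%) were lower. Over both directions these were 18.4% of genes in GDel1 and 12.1% in GDel2, beside 9.16%, 8.82% and 7.49% in the 3 pairs of wildtype replicates. The median absolute difference was 0.263 in GDel1 and 0.201 in GDel2, against 0.110 to 0.125 between wildtype replicates.

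The pairs of GDel1 and GDel2 share no library, and part of their differences had the same direction. In both pairs, 173 genes (1.12%) were higher and 348 (2.26%) were lower, while 241 (1.56%) passed 1.5-fold in opposite directions. The split depended on the scaling: with total expected counts it was 105 higher and 622 lower, with totals of nuclear genes 134 and 461, and with deposited TPM 31 and 252. Lower genes outnumbered higher ones under each of these. The 348 lower genes were 19.95% of the genes lower in GDel1 and 34.8% of those lower in GDel2. The 173 higher genes were 15.9% of those higher in GDel1 and 20.2% of those higher in GDel2. Across all nuclear genes the 2 differences had a Pearson r of 0.207 and a Spearman rho of 0.307. These describe genes of the same 4 libraries, which are not independent replicates.

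Many of these genes were weakly expressed. Among the 10325 nuclear genes with a mean of 5 CPM or more, 31 (0.3%) were higher in both pairs, 160 (1.55%) were lower in both and 26 (0.252%) moved in opposite directions. In the same genes, 10.7% passed 1.5-fold in either direction in GDel1 and 4.91% in GDel2, against 1.59%, 1.64% and 0.891% between wildtype replicates. Pearson r was 0.434 and Spearman rho 0.487. At this level of expression the shared differences lay mainly on the side of lower values in the high libraries.

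**Figure D2:**
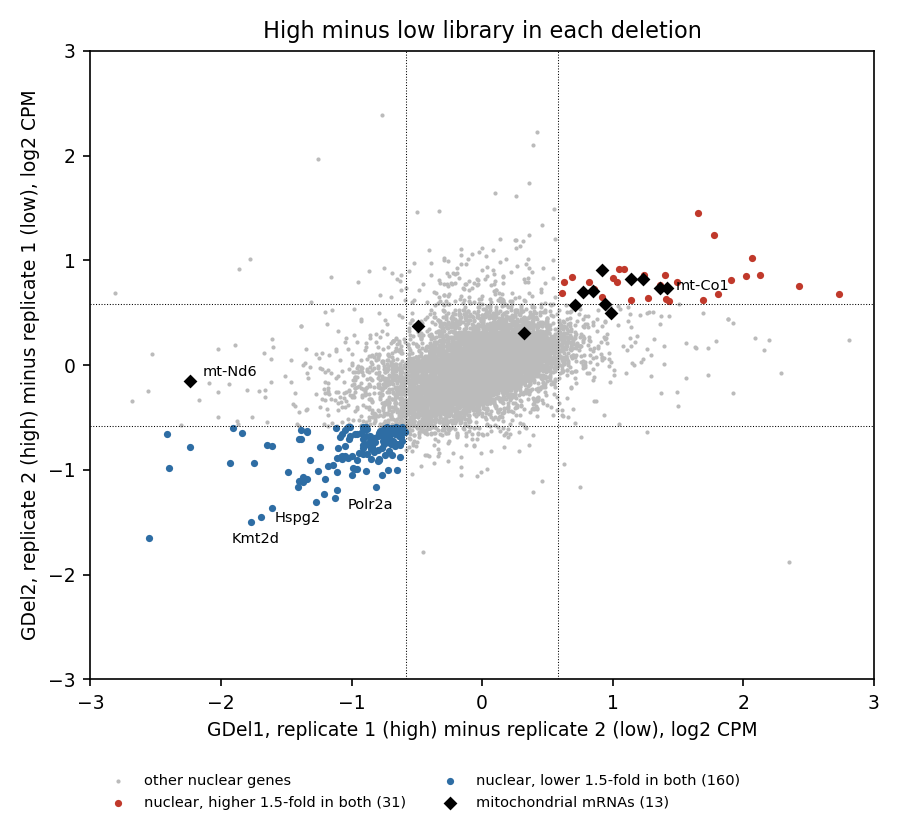
Each point is a gene, placed by its high-minus-low difference in log2 CPM in GDel1 (horizontal) and in GDel2 (vertical), for nuclear genes with a mean of 5 CPM or more and for 13 mitochondrial mRNAs, with dotted lines at 1.5-fold. In the lower left lie 160 nuclear genes and in the upper right 31 nuclear genes and 7 mitochondrial mRNAs, and 18 of the nuclear genes, Hist1h2aj and Rnu1b6 among them, lie beyond the axes.

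The 160 lower genes were not far from wildtype in the low libraries. Relative to the wildtype mean, on the scale of log2(CPM + 0.5), their median was -0.98 in the high library of GDel1 and -0.92 in that of GDel2. In both low libraries it was -0.14. Of these genes, 124 were lower in both high libraries than in all 5 other libraries. Over all 10325 genes the medians were between -0.02 and 0.03 in each deletion library. The choice of genes fixes the order of high and low libraries but not where wildtype lies.

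The 31 higher genes were placed differently. Their median relative to wildtype was 0.46 and 0.51 in the high libraries of GDel1 and GDel2, against -0.81 and -0.26 in the low libraries, and 19 of them were above all 5 other libraries in both high ones. Here the high libraries lay above wildtype and the low libraries below it. Part of the 31 may repeat the values that sorted the libraries, as described below, and this was not tested.

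Of the genes lower in the high libraries, those named for the size of their differences are described first. Kmt2d, a histone H3K4 methyltransferase that acts at enhancers, had 76.3 and 85.2 CPM in the high libraries of GDel1 and GDel2, against 260.5 and 242.0 CPM in the low libraries and 299.0, 306.1 and 298.9 CPM in wildtype. The high libraries were separate from all 5 others, and the differences were -1.77 and -1.50. The ratio of high to low was 0.293 in GDel1 (counting interval 0.273 to 0.314) and 0.352 in GDel2 (0.329 to 0.377).

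Polr2a encodes the catalytic subunit of RNA polymerase II. It had 321.9 and 308.7 CPM in the high libraries, against 703.9 and 745.1 CPM in the low libraries and 1021, 1023 and 930.4 CPM in wildtype. The differences were -1.13 in GDel1 and -1.27 in GDel2, and here the low libraries also lay below wildtype. Of 12 RNA polymerase II subunit genes, a family drawn up after the values were seen, Polr2a alone passed 1.5-fold in both pairs. Among all nuclear genes 2.26% were lower and 1.12% higher in both, so a list of 12 would hold few or no such genes. Polr2b, the second-largest subunit, had 307.5 and 320.7 CPM in the high libraries, against 239.5 and 275.7 CPM in the low libraries, with differences of 0.36 and 0.22.

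Kdm6b, a demethylase of histone H3K27, had 22.9 CPM in both high libraries, against 60.8 and 51.2 CPM in the low libraries and 62.6 to 66.6 CPM in wildtype. Its differences were -1.41 and -1.16, and the order was high below low below wildtype.

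Rere, a transcriptional corepressor, had 36.7 and 37.3 CPM in the high libraries, against 95.2 and 81.2 CPM in the low libraries and 103.8 to 107.9 CPM in wildtype. The differences were -1.37 and -1.12, and both low libraries lay below wildtype.

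Mbd6, a protein with a methyl-CpG-binding domain, had 11.5 and 14.9 CPM in the high libraries, against 27.9 and 37.0 CPM in the low libraries and 32.9 to 34.7 CPM in wildtype. Prr12, a proline-rich protein, had 33.4 and 38.3 CPM in the high libraries, against 88.5 and 83.1 CPM in the low libraries and 108.7 to 118.7 CPM in wildtype. Pom121, which anchors the nuclear pore in the nuclear membrane, had 56.4 and 71.2 CPM in the high libraries, against 130.2 and 167.0 CPM in the low libraries and 162.1 to 168.2 CPM in wildtype. In each of these genes the 2 high libraries lay below the 5 others.

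Hspg2, or perlecan, is a heparan sulfate proteoglycan of basement membranes. It had 127.1 and 75.5 CPM in the high libraries of GDel1 and GDel2, against 410.0 and 206.1 CPM in the low libraries and 466.8 to 483.0 CPM in wildtype. The differences were -1.69 and -1.45, and GDel2 was lower than GDel1 on either side.

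Among the named genes, Rnu1b6 had the largest lower values. It is a copy of the U1 small nuclear RNA whose reads are uncertain because near-identical copies exist. Rnu1b6 had 49 counts in the high library of GDel1, against 2410 counts in the low library. In GDel2 it had 0 counts in the high library, against 109 in the low library, which is at least 39.7-fold lower with a floor of 3 counts in the library at 0. All 3 wildtype libraries were at 0, and so was 1 deletion library, GDel2 replicate 2.

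**Figure D3:**
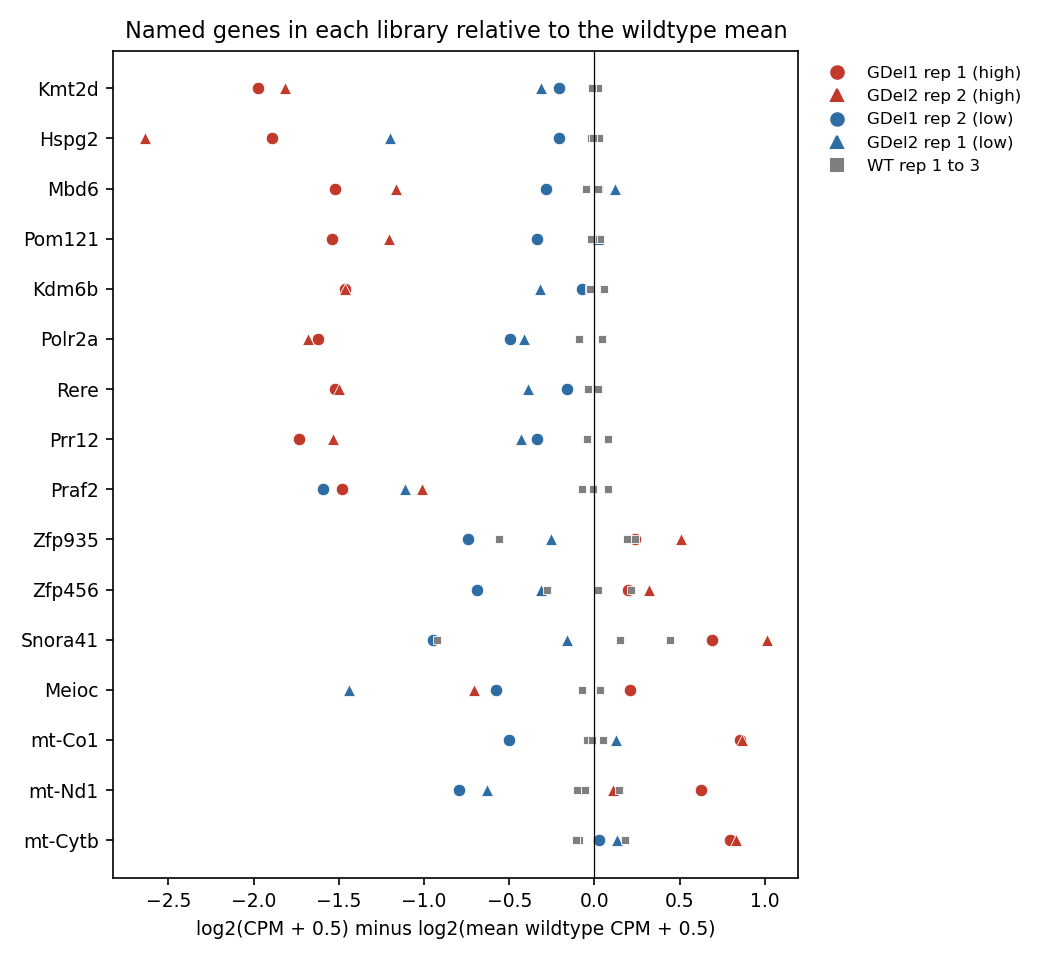
Each row is a gene and each point a library, placed by log2(CPM + 0.5) minus the same for the mean wildtype CPM. For Kmt2d to Prr12 the high libraries (red) lie left of the low libraries (blue) and of wildtype (grey), for Praf2 all deletion libraries lie together below wildtype, and for mt-Co1 both high libraries lie to the right.

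Families around these genes were drawn up after the values were seen, so their counts describe and do not test. Of 17 measured genes of the KMT2 and SETD1 methyltransferase complexes, 4 were lower in both pairs and none was higher, beside 2.26% lower and 1.12% higher among all nuclear genes. These 4 were enzymes: Kmt2d, Kmt2a, Kmt2b and Setd1b. The methyltransferases Kmt2c (-0.61 and -0.38) and Setd1a (-0.36 and -0.50) of the same family did not pass 1.5-fold in both pairs. Kmt2a had 78.2 and 96.1 CPM in the high libraries of GDel1 and GDel2, against 164.6 and 176.2 CPM in the low libraries, with differences of -1.07 and -0.87. Kmt2b differed by -0.88 and -0.85, and Setd1b by -1.20 and -1.09. The shared core subunits Ash2l (0.12 and 0.06), Rbbp5 (0.34 and -0.02), Wdr5 (-0.15 and -0.29) and Dpy30 (-0.15 and -0.22) did not pass 1.5-fold in either pair. Transcript length moved with this contrast: the 4 lower genes were 5028 to 18946 bases and these core subunits 615 to 2693 bases, and its part was not tested. Kmt2c (9912 bases) and Hcfc1 (8091 bases, -0.35 and -0.44) were long as well and did not pass in both. The family median was -0.15 in GDel1 and -0.29 in GDel2, beside -0.02 and -0.01 over all nuclear genes.

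Of 26 genes of the SWI/SNF chromatin remodelling complexes, 3 were lower in both pairs and none was higher. Among all nuclear genes 2.26% were lower and 1.12% higher. The median of the 26 was -0.07 in GDel1 and -0.13 in GDel2. Arid1a, a DNA-binding subunit, had 131.4 and 160.4 CPM in the high libraries, against 276.8 and 299.9 CPM in the low libraries and 346.7 to 365.8 CPM in wildtype. Bicra differed by -1.49 and -1.02, and the ATPase Smarca4 by -0.66 and -0.61. Related subunits did not follow: Arid1b differed by 0.03 and -0.18, and Arid2 by 0.01 and -0.09. Srcap, the ATPase of another remodelling complex, which deposits the histone variant H2A.Z, had 208.0 and 237.9 CPM in the high libraries, against 415.6 and 493.7 CPM in the low libraries and 528.3 to 585.8 CPM in wildtype. Ep400 (-0.90 and -0.76) and Trrap (-0.73 and -0.73), which belong to a histone acetyltransferase complex, were also among the 160 genes.

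Spen, a large RNA-binding corepressor, had 44.1 and 43.7 CPM in the high libraries, against 112.2 and 93.1 CPM in the low libraries and 121.2 to 134.6 CPM in wildtype, and was chosen after its values were seen. Of 28 nuclear pore genes, Pom121 and Nup214 (-0.64 and -0.66) were lower in both, beside 2.26% of all nuclear genes, and the family median was 0.04 and 0.09. Of 32 Mediator subunits none passed 1.5-fold in both pairs, with medians of 0.02 and -0.05. In the families of the nuclear pore and of chromatin a few members were lower and most others stayed within 1.5-fold.

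Basement membrane and matrix genes, a family also drawn up after the values were seen, had medians of -0.51 in GDel1 and -0.44 in GDel2 over 16 genes, and of -0.67 to -0.40 and -0.54 to -0.44 under the other scalings. Of the 16, Hspg2, Fn1, Lama5 and Lama3 passed 1.5-fold in both pairs, so 4 did in all, and 6 passed it in each pair taken alone. Among all nuclear genes 2.26% were lower in both, 11.3% in GDel1 and 6.48% in GDel2. Lama3 was weakly expressed, with 2.50 and 1.45 CPM in the high libraries, against 4.16 and 2.45 CPM in the low libraries. It had 1.55 to 1.84 CPM in wildtype. Fn1, which encodes fibronectin, had 820.3 and 528.3 CPM in the high libraries of GDel1 and GDel2, against 1593 and 990.0 CPM in the low libraries and 1953 to 2022 CPM in wildtype. Lama5, a laminin chain, had 81.1 and 62.2 CPM in the high libraries, against 152.4 and 107.3 CPM in the low libraries. Sparc (0.44 and -0.10) and Col4a2 (0.21 and -0.63) were exceptions in GDel1. Fn1 and Lamc1 (-0.57 and -0.43) were also below wildtype in all 4 deletion libraries.

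Some further genes of the 160 are given with their values. They were chosen after their values were seen, and related genes outside the 160 were not counted. Lrp1, an endocytic receptor, had 20.1 and 31.3 CPM in the high libraries of GDel1 and GDel2, against 52.3 and 65.8 CPM in the low libraries and 61.9 to 67.9 CPM in wildtype. Notch1 differed by -0.91 and -0.60, Notch4 by -0.63 and -0.64, the Wnt coreceptor Lrp5 by -0.89 and -0.68, and Dvl3, which carries the Wnt signal, by -0.79 and -0.90. Tcf7l1, a repressor of Wnt targets in embryonic stem cells, had 41.1 and 54.4 CPM in the high libraries, against 73.0 and 96.4 CPM in the low libraries and 103.0 to 107.3 CPM in wildtype. The splicing factors Sf3a1 (-0.72 and -0.60) and Sf3a2 (-0.61 and -0.72) were part of the same set.

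Many of the lower genes were long. Their median transcript length in the deposited tables was 3689 bases, against 2346 over all 10325 genes. The share of genes lower in both pairs was 0.989% under 1 kb (n = 1213), 0.772% from 1 to 2 kb (n = 2979) and 1.17% from 2 to 4 kb (n = 4285). It was 2.85% from 4 to 6 kb (n = 1332), 4.82% from 6 to 8 kb (n = 353) and 12.3% at 8 kb or more (n = 163). The 20 lower genes of 8 kb or more included Kmt2d, Hspg2, Kmt2a, Lrp1, Srcap, Lama5, Fat1 and Ago2, the last a protein of small RNA silencing. Most long genes were not among them: the median difference at 8 kb or more was -0.17 in GDel1 and -0.10 in GDel2. Over all 10325 genes the Spearman rho with length was -0.046 in GDel1 and -0.058 in GDel2.

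**Figure D4:**
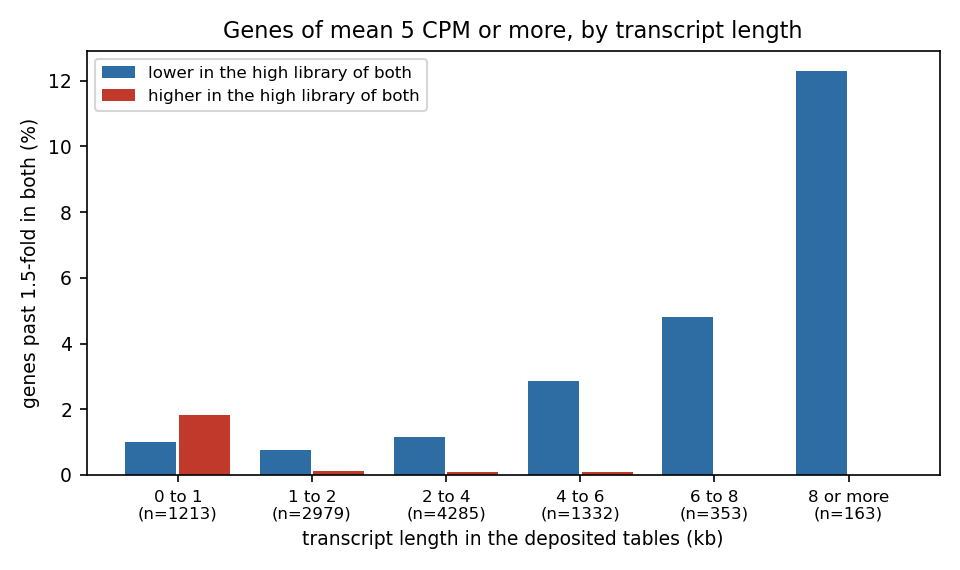
Bars give the percentage of genes with a mean of 5 CPM or more that were 1.5-fold or more lower (blue) or higher (red) in the high library of both deletions, by transcript length in kb, with the number of genes under each pair of bars. The lower share is 0.989% under 1 kb and 12.3% at 8 kb or more, and the higher share is 1.81% under 1 kb.

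Genes higher in the high libraries were mostly short. Their median length was 747 bases, and 22 of the 31 were under 1 kb. By RefSeq type, 10 were pseudogenes, 7 protein-coding, 2 snoRNAs and 2 transcribed pseudogenes, while 10 had no type. Of the 160 lower genes 139 were protein-coding. Symbols of the form Gm and a number made 21 of the 31 higher genes and 16 of the 160 lower ones.

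The most abundant of the higher genes was Gm28661, a predicted gene. It had 12119 and 11412 CPM in the high libraries of GDel1 and GDel2, against 4598 and 6276 CPM in the low libraries. Gm10222, annotated as a pseudogene on chromosome 1, had 1180 and 1289 CPM in the high libraries, against 589.6 and 724.6 CPM in the low libraries. Gm28439 had 458.1 and 514.2 CPM in the high libraries, against 109.0 and 253.3 CPM in the low libraries. Their differences (1.40 and 0.86, 1.00 and 0.83, 2.07 and 1.02) were in the range of the mitochondrial mRNAs or above it, and reads of pseudogenes can be shared with their parent genes. These 3 were named after their values were seen. They count as nuclear here only because their symbols do not begin with mt-. Gm28661 has the length of mt-Atp6 (681 bases), and Gm13340, also among the 31, has that of mt-Co1 (1545 bases). Whether such entries hold reads of mitochondrial RNA was not tested, so part of the 31 may repeat the values that sorted the libraries.

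By the smaller of both differences, a histone gene came first among the 12 named higher genes. Hist1h2aj, a replication-dependent histone H2A gene, had 20.4 and 24.8 CPM in the high libraries of GDel1 and GDel2, against 0 counts in the low library of GDel1 and 8.44 CPM in that of GDel2. With a floor of 3 counts in the library at 0 it was at least 130.4-fold higher in GDel1, and 2.94-fold higher in GDel2 (counting interval 2.36 to 3.68). Hist1h2an had 9.66 and 10.1 CPM in the high libraries, against 6.30 and 6.23 CPM in the low libraries and 3.39 to 12.97 CPM in wildtype, so its values overlapped wildtype. Hist1h3h, the most abundant of the measured histone genes, had 528.8 and 576.3 CPM in the high libraries, against 185.7 and 385.7 CPM in the low libraries and 330.8 to 363.9 CPM in wildtype. Its differences were 1.51 and 0.58, just short of 1.5-fold in GDel2. The other histone genes did not follow as a group: of 65 measured, 2 were higher and 1 lower (Hist2h2ab, -0.71 and -1.13) in both pairs, and the median was -0.19 in GDel1 and 0.29 in GDel2. These counts stand beside 1.12% higher and 2.26% lower among all nuclear genes. Reads of such near-identical copies are uncertain.

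Small nucleolar RNAs guide chemical changes of rRNA and lie mostly in introns of host genes. Of 52 small nucleolar and Cajal body RNAs of the list, 10 were higher and 2 lower (Snora70 and Snord22) in both pairs, with medians of 0.22 and 0.26. By RefSeq type, 11 of 77 snoRNAs were higher in both (14.3%) and 2 lower (2.60%), beside 1.12% and 2.26% of all nuclear genes. Of 12142 protein-coding genes 0.395% were higher and 1.91% lower. The higher share was 4.55% in pseudogenes, 4.12% in transcribed pseudogenes, 2.83% in lncRNAs and 2.04% in snRNAs. On the scale of deposited TPM both medians of the list were 0.00. Snora41 had 8.69 and 10.99 CPM in the high libraries, against 2.45 and 4.58 CPM in the low libraries and 2.50 to 7.25 CPM in wildtype. Snora5c had 6.84 and 6.51 CPM in the high libraries, against 3.28 and 1.97 CPM in the low libraries and 2.72 to 4.64 CPM in wildtype. Snord104 differed by 0.65 and 0.71 and overlapped wildtype. The most abundant member, Snora23, had 823.1 and 527.4 CPM in the high libraries, against 237.9 and 448.4 CPM in the low libraries, with differences of 1.79 and 0.23. Counts of such RNAs cannot be told apart from reads of the introns that hold them.

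Rn7sk, the RNA of a complex that holds back transcription elongation, is the most abundant of these small nuclear RNAs. It had 31621 and 23694 CPM in the high libraries of GDel1 and GDel2, against 15346 and 18183 CPM in the low libraries and 18736 to 20970 CPM in wildtype. Both high libraries were above the 5 others, with differences of 1.04 and 0.38, which did not pass 1.5-fold in GDel2. Malat1, a long nuclear RNA, differed by -0.08 and 0.05. Of 22 structural and nuclear-retained RNAs measured, Terc, the telomerase RNA, was lower in both pairs, beside 2.26% of all nuclear genes. Terc was at 0 counts in both high libraries, against 0.573 and 0.868 CPM in the low libraries and 0.810, 0 and 0 CPM in wildtype. Its difference thus rests on values near 0. The other RNAs of the list did not pass 1.5-fold in one direction in both pairs.

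Few protein-coding genes were higher in both pairs. The zinc finger genes Zfp935 and Zfp456, and Rsl1 of the same class, lie on chromosome 13. Zfp935 had 10.95 and 13.3 CPM in the high libraries, against 5.31 and 7.65 CPM in the low libraries and 6.09 to 10.95 CPM in wildtype. Zfp456 differed by 0.92 and 0.65, and Rsl1 by 0.63 and 0.79. Of 344 genes named Zfp, 2 were higher and 2 lower (Zfp13 and Zfp423) in both pairs, beside 1.12% and 2.26% of all nuclear genes. Taken alone, GDel1 had 14 of them higher and 21 lower, and GDel2 had 45 higher and 10 lower. Among all nuclear genes 7.08% were higher and 11.3% lower in GDel1, and 5.57% and 6.48% in GDel2. Meioc, a meiotic gene, differed by 0.82 and 0.79 and Rab43, a small GTPase, by 1.81 and 0.78. Srp54b, a signal recognition particle gene with close copies, differed by 1.69 and 0.62.

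Among 79 gene entries of nuclear respiratory chain subunits, 1 was higher and 2 were lower in both pairs, counts near the shares over all nuclear genes (1.12% higher and 2.26% lower), with medians of -0.14 in GDel1 and 0.00 in GDel2. The lower ones were the complex I subunits Ndufb3 (-1.25 and -0.64) and Ndufb10 (-1.03 and -0.59). The higher one was an entry of Atp5o, a subunit of ATP synthase, that shares its symbol with a more abundant entry. It had 9.02 and 12.1 CPM in the high libraries, against 1.25 and 7.50 CPM in the low libraries. The abundant Atp5o entry had 228.0 and 178.8 CPM in the high libraries, against 195.2 and 174.9 CPM in the low libraries, with differences of 0.22 and 0.03. The ATP synthase subunits Atp5b (-0.29 and -0.18) and Atp5a1 (-0.03 and -0.02) were close to 0 or lower.

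Other lists of nuclear genes for mitochondria would hold few or no shared genes at the shares over all nuclear genes (1.12% higher and 2.26% lower). None of 78 mitochondrial ribosomal protein genes, with medians of 0.06 and 0.06, passed 1.5-fold in both pairs. The same held for 17 genes of mitochondrial transcription and genome maintenance (0.02 and 0.06) and for 21 genes of mitochondrial RNA processing (0.09 and 0.02). Tfam, which packages mitochondrial DNA and starts its transcription, had 64.4 and 59.7 CPM in the high libraries of GDel1 and GDel2, against 80.1 and 54.9 CPM in the low libraries and 52.2 to 54.4 CPM in wildtype. Lrpprc, which stabilises mitochondrial mRNAs, differed by -0.00 and -0.02. Of 28 import and chaperone genes and 16 genes of mitophagy and mitochondrial dynamics, none passed in both. Of 13 regulators of mitochondrial biogenesis 1 was lower in both, beside 2.26% of all nuclear genes. It was Pprc1, a coactivator related to PGC-1. Pprc1 had 135.0 and 170.2 CPM in the high libraries, against 244.7 and 280.1 CPM in the low libraries and 272.1 to 298.7 CPM in wildtype.

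The lists of stress and metabolic genes were short, and at 1.12% higher and 2.26% lower over all nuclear genes each would hold few or no such genes. No gene passed 1.5-fold in both pairs among 22 measured genes of the integrated stress response, 18 of ER stress, 12 of heat shock, 19 p53 targets, 28 of hypoxia and glycolysis or 22 of cholesterol synthesis. Their medians lay between -0.14 and 0.09 in GDel1 and between -0.18 and 0.06 in GDel2. Atf4, a transcription factor of the integrated stress response, had 199.9 and 228.8 CPM in the high libraries, against 162.9 and 214.7 CPM in the low libraries and 206.4 to 222.1 CPM in wildtype. Hspd1, a mitochondrial chaperone, differed by -0.73 in GDel1 and -0.06 in GDel2.

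Lists of cell cycle and identity genes were also short. At 1.12% higher and 2.26% lower in both pairs over all nuclear genes, each would hold few or no such genes. None of 27 S phase genes, 28 G2 and M phase genes, 22 naive pluripotency genes and 14 formative and primed genes passed in both pairs. Nanog had 1023 and 1354 CPM in the high libraries, against 917.9 and 1405 CPM in the low libraries and 1038 to 1054 CPM in wildtype. Cytosolic ribosomal protein genes (84 measured) had medians of -0.26 in GDel1 and 0.01 in GDel2, and none passed in both. In GDel1, 19 of them were 1.5-fold or more lower and 3 higher, against none either way in GDel2, a difference between deletions that was not tested. Over all nuclear genes 11.3% were lower and 7.08% higher in GDel1, and 6.48% and 5.57% in GDel2. Msi1 alone was lower in both pairs among 6 neuroectoderm genes, with differences of -1.02 and -0.71, and Mixl1 alone was higher among 3 mesendoderm genes, at 0.729 to 2.60 CPM in the deletion libraries. Of 4 measured genes of the feeder list, Fn1 and Col1a1 were lower in both, beside 2.26% of all nuclear genes. Col1a1 was under 1 CPM in all 4 deletion libraries. The other measured genes of that list, Vim (0.09 and 0.22) and Thy1 (0.83 and 0.09), were not lower in either pair. No member passed in both pairs among 17 immediate early genes, 11 genes of the 2-cell-like state, 9 each of primitive endoderm and trophoblast, 8 of the interferon response, 30 of ribosome biogenesis and 19 of RNA decay. The primitive endoderm genes, which include the basement membrane genes Lamc1, Sparc and Lama1, had medians of -0.41 and -0.42.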

How the data were processed

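RNA-Seq tables of 7 libraries were used, 4 with a Praf2 deletion and 3 wildtype. Per the submitters' processing notes, reads were handled with tools that include RSEM and STAR, no version being given, on build mm10. The deposited tables hold expected counts per gene, which the authors did not scale for depth. They also hold deposited TPM, which the authors scaled by effective length to the same sum in each library, and deposited FPKM, which was not used. Of 55487 gene identifiers, 55141 had a symbol. The strand counted and the annotation release are not stated in the labels.

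Expected counts were rounded. Genes were kept by filterByExpr of edgeR 4.0.16 in R 4.3.3 with 3 groups, at least 10 counts and a total of 15 as minimum, leaving 15421 genes with 99.9% of counts, 15405 of them nuclear. CPM used TMM library sizes over all 7 libraries, and log2 CPM a prior count of 2. Gene types came from RefSeq by symbol (88.5% of nuclear genes had one). DESeq2 1.42.0 gave size factors as an alternative scaling. Tables were made with Python 3.11.15, pandas 2.3.3 and scipy 1.17.1, and figures with matplotlib 3.10.9. Steps were tested on simulated data.

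Depth was 12316853 to 18762704 expected counts. Shares have 95% Wilson intervals, and ratios of counts have exact binomial intervals. Both cover counting error only, as does the floor of 3 counts per library. The libraries were sorted by a measured value, and the gene lists were chosen with earlier results of these data known, so no test was run and no p-value is given. A gene was counted when it passed 1.5-fold in the same direction in both deletions. Each deletion gives 1 high and 1 low library, so the differences were not averaged, and wildtype replicate pairs give the spread between replicates. The named genes were Praf2, mitochondrial genes with 10 CPM or more in any library, the 12 nuclear genes with the largest smaller difference of both pairs in each direction (5 CPM or more in the higher library of both), and the 3 most abundant measured members of each of 34 lists. The 8 families were added after the values were seen, as were other genes named from the 160 lower and 31 higher genes. The result for some named genes and for 1 family is not reported here. Promoter composition was not compared, since the table of promoters covers 66.1% of nuclear genes.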

Additional observations from a re-analysis of the deposited data

Results flagged for a closer look

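2 mitochondrial genes passed 1.5-fold in opposite directions in the deletions, and the difference between deletions was not tested. The mitochondrial large ribosomal RNA mt-Rnr2 differed by 0.65 in GDel1 and by -1.13 in GDel2. It had 192 counts in the high library of GDel1, against 188 counts in the deeper low library, and 35 counts in the high library of GDel2, against 72 in the low library. Wildtype had 19.95, 1.98 and 1.89 CPM, so 1 wildtype library was about as high as the high library of GDel1, at 15.5 CPM. All these libraries were depleted of ribosomal RNA. The mitochondrial methionine tRNA mt-Tm differed by -0.89 in GDel1 and by 1.83 in GDel2. These values rest on 1 count in the high library of GDel1, against 5 in the low library, and on 24 counts in the high library of GDel2, against 5 in the low library. Groups of 2 or 3 libraries were too small for a search for outlying samples.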

How the results depend on the processing

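The counts of genes past 1.5-fold in both deletions (173 higher, 348 lower) depended on the scaling and on the filter. Total expected counts gave 105 and 622, no filter beyond 1 count 616 and 830, a mean of at least 5 CPM, with the scaling recomputed on those genes, 31 and 161 (160 lower with the scaling kept), and a fold threshold of 2 gave 31 and 66. Deposited TPM, with a pseudocount of 1, gave 31 higher genes and 252 lower ones. DESeq2 size factors (171 and 352), totals of nuclear genes (134 and 461), a prior count of 0.5 (206 and 398) and TMM on nuclear genes alone (175 and 348, chosen after seeing the data) moved neither count by over 1.5 times. Against the median of all nuclear genes (-0.02 and -0.01), total counts shifted it to -0.17 in GDel1 and -0.11 in GDel2, nuclear totals to -0.10 and -0.05, and TPM to -0.05 and -0.16. The cause was not tested.

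Leaving out 1 library gave 159 to 1091 higher and 330 to 1744 lower genes. The upper ends come from leaving out a deletion library, which leaves the other deletion's pair alone (858 and 999 in GDel2, 1091 and 1744 in GDel1). Leaving out a wildtype library gave 159 to 172 and 330 to 342. No paired analysis was possible because these values come from no test. Each difference is taken within a deletion, and replicate numbers do not link the groups. By deposited TPM the mitochondrial shares were 6.10% and 6.96% in the high libraries of GDel1 and GDel2, and 3.19% and 4.87% in the low libraries. They moved by at most rounding without mitochondrial rRNA. Pearson r was 0.434 with a mean of 5 CPM or more and 0.205 without histones, ribosomal proteins and small RNAs, against 0.207. Of 336 list medians under other scalings, 73 moved by over 0.15 and 63 had the other sign, each from a median of at most 0.14 in size, such as mitochondrial ribosomal proteins in GDel1 (-0.09 with total counts, against 0.06). With 1 library on each side of each pair, variation between cultures cannot be told apart from the split.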
